A study of Mus musculus with 12 samples.

Results

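The comparison described here asks what the loss of 1 of the 2 copies of Adm, the gene of the vasodilator peptide adrenomedullin, did to gene expression in the lung of newborn mice that received only the vehicle. Its members were the libraries labelled Adm+/- and PBS (replicates 6, 7 and 8) and those labelled Adm+/+ and PBS (WT PBS, replicates 3, 4 and 5), which are 6 of the 12 mouse libraries, and the genes annotated as protein-coding, which are 21950 of 52550 in the counts. The other 6 libraries came from WT and Adm+/- mice given lipopolysaccharide (LPS) of Escherichia coli O55:B5 at 6 mg/kg. All mice were C57Bl/6J on postnatal day 5, a stage at which alveoli are forming. PBS was injected into the peritoneum in 3 daily doses starting on postnatal day 3, in the volume that carried LPS in the other groups, and the whole lung was taken 6 h after the last dose. Both PBS groups therefore carry the same handling and injections and differ in genotype. The Adm allele is a constitutive one that was made on another strain background and crossed back to C57BL/6J, so 1 copy is missing in every cell of the animal from conception, and lung effects cannot be told apart from effects that reach the lung from other organs. Each library came from the lung of 1 mouse, with 3 mice per group.

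Adrenomedullin is made by endothelial cells, smooth muscle and other cells of the lung. It acts on a receptor formed by the calcitonin receptor-like receptor (Calcrl) and a receptor activity-modifying protein (Ramp2 or Ramp3), which raises cyclic AMP in the target cell. It is known for keeping the endothelium tight, for forming lymphatic vessels and for relaxing vessels. Its message is raised by hypoxia and by inflammatory stimuli.

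Total counts ranged from 22.4 to 33.1 M over the 6 PBS libraries. Markers of lung were high in each of them. Before scaling between libraries, the surfactant gene Sftpc lay between 8415 and 11290 counts per M protein-coding counts (CPM), the type I pneumocyte gene Ager between 1029 and 1575, the endothelial gene Pecam1 between 371 and 500 and the fibroblast gene Tcf21 between 234 and 285, while the muscle gene Acta1, the thymocyte gene Dntt and the squamous genes Krt5 and Krt13 did not exceed 2.7 CPM. Genes of other tissues were present, and after scaling their lists summed to between 406 and 1116 CPM for cardiac muscle, 498 and 1039 for skeletal muscle, 98.1 and 295 for cartilage, 95.9 and 175 for brown fat and 24.4 and 59.3 for liver. Libraries WT PBS 5 and Adm+/- PBS 6 stood apart, where protein-coding genes took 77.8% and 80.1% of counts, while they took 85.6% to 87.3% in each of the remaining 4. They lay at 166 and 62.7 on the first principal component of the 6 libraries, which held 57.1% of the variance, while the others lay between −71.3 and −37.9. Each genotype has 1 such library. A median gene had an SD of 0.288 between the 3 WT PBS libraries and of 0.187 between the 3 Adm+/- PBS libraries on the log2 CPM scale, so the WT group was the more spread. All levels below are CPM after trimmed mean of M-values (TMM) scaling, the values of a gene are given in the order WT PBS 3, 4 and 5 and then Adm+/- PBS 6, 7 and 8, and fold changes are log2 values of Adm+/- over WT.

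The targeted gene was low in both genotypes. Adm (chromosome 7, 110627661 to 110629820 in mm10) measured 3.96, 7.09 and 4.57 CPM in the WT PBS libraries and 4.58, 2.87 and 3.62 CPM in the Adm+/- PBS libraries. The highest value belonged to WT PBS 4 and the lowest to Adm+/- PBS 7, and the genotypes overlapped because Adm+/- PBS 6 lay above WT PBS 3. The log2 fold change was −0.50 (standard error 0.32, unadjusted p = 0.138 with edgeR's quasi-likelihood test). Its 95% interval from −1.2 to 0.19 holds both 0 and the value of −1 that an even loss of 1 copy of the message would give. Without WT PBS 4 the log2 fold change was −0.21. Averaged over PBS and LPS, which brings in the other 6 libraries, the log2 fold change was −0.53 (adjusted p = 0.447 with edgeR's quasi-likelihood test and Benjamini-Hochberg adjustment). The study states that it checked the genotype by genotyping and by RT-PCR of Adm in lung tissue. Whether the reads of the Adm+/- libraries come from the remaining copy alone cannot be read from gene counts. The promoter of this gene is shown because it carries the core letters of the hypoxia element. It is the 250 bases before the start of the RefSeq transcript on GRCm38.p6, plus strand, chr7:110627407-110627656, with capitals for the core GCGTG read on the minus strand. The core, searched as ACGTG or GCGTG on both strands, occurs in 38.6% of 32851 promoters of this length, and a match is a description of the letters only.
Adm: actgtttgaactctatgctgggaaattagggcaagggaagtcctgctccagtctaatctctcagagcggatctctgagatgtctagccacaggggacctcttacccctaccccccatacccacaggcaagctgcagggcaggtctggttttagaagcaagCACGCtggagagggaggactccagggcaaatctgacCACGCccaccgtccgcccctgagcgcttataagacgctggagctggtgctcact

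**Figure D1:**
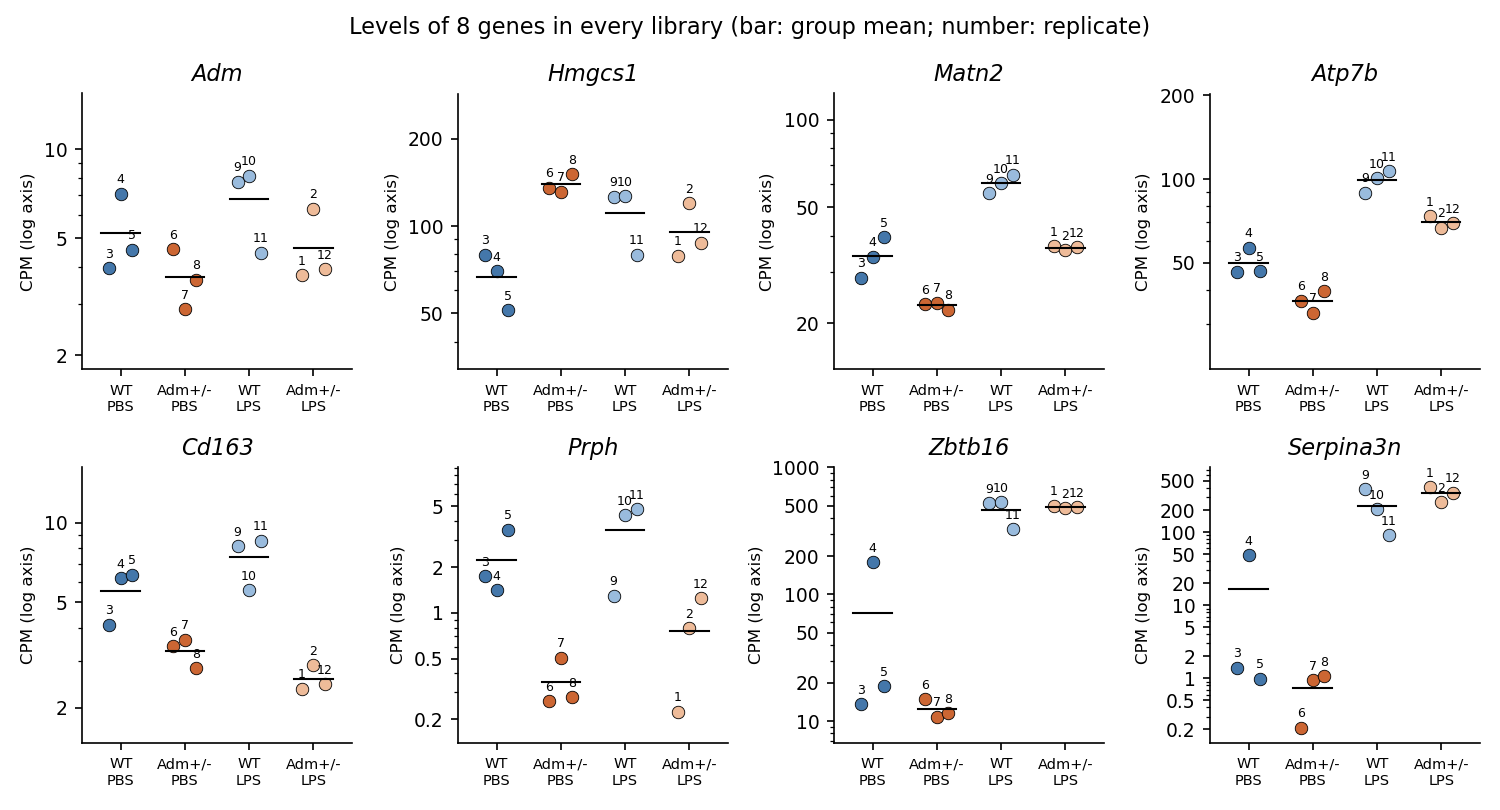
Levels of Adm and 7 of the leading genes in each of the 12 libraries, in CPM after TMM scaling on a log axis, with 1 numbered point per mouse and a bar at the group mean. Under PBS, Adm overlaps between the genotypes (2.87 to 7.09 CPM over the 6 mice), Hmgcs1, Matn2, Atp7b, Cd163 and Prph do not, and Zbtb16 and Serpina3n are high in WT PBS 4 alone.

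No gene passed the threshold between the genotypes under PBS. The threshold was an adjusted p under 0.05 together with a log2 fold change beyond 0.5 in size, and of 15885 protein-coding genes tested 0 met it (0% in either direction). The smallest adjusted p from edgeR's quasi-likelihood test was 0.999, and the count was 0 as well in each of the 20 alternatives tried, DESeq2 and limma-voom among them. At an unadjusted p below 0.05 there were 344 genes, with 82 higher in Adm+/- mice (0.516% of the genes tested) and 262 lower (1.65%). DESeq2 had 399 genes at that level and limma-voom 234. The 3 Adm+/- values lay above all 3 WT values for 393 genes (2.47%) and below them for 399 (2.51%). Under LPS the same genotype contrast had 325 genes past the threshold, 52 higher and 273 lower, with 834 genes higher (5.25%) and 1441 lower (9.07%) at an unadjusted p below 0.05. At that level under LPS, 29 of 30 skeletal muscle genes and 18 of 20 squamous genes were lower and 0 of either list higher. The share of such tissue in the LPS samples was not tested. The genes named below are therefore described by their values, and none of them passed under PBS after adjustment.

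**Figure D2:**
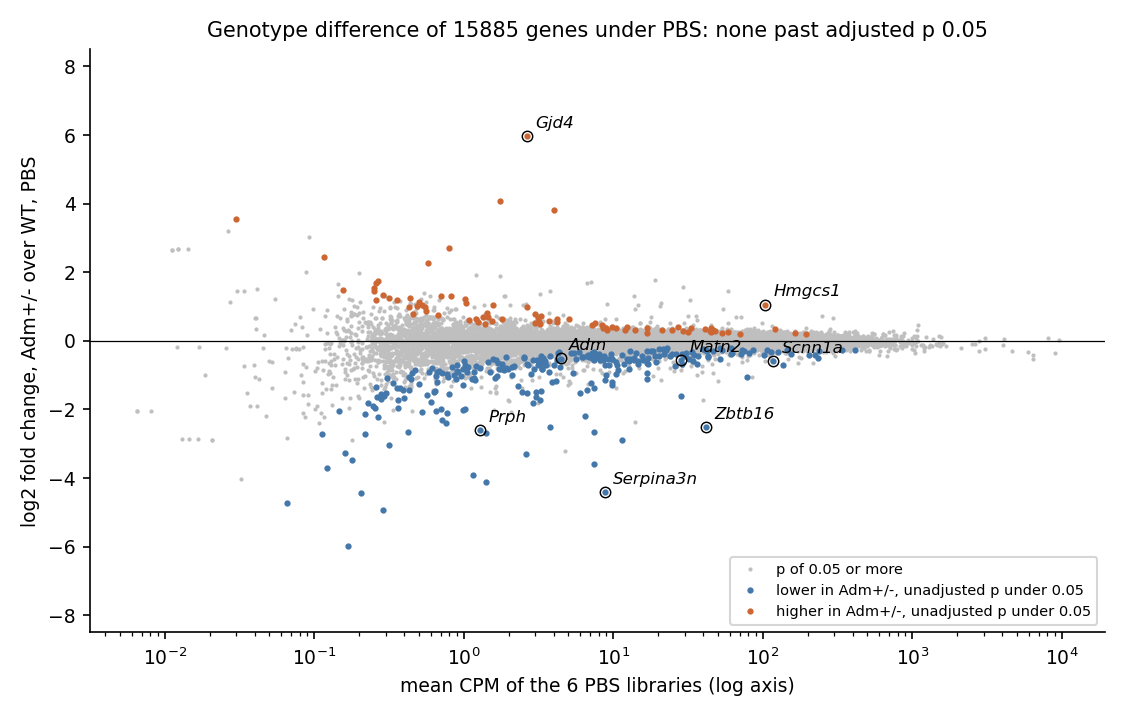
Log2 fold change of Adm+/- over WT under PBS on the vertical axis against the mean CPM of the 6 PBS libraries on a log horizontal axis, with 1 point per tested gene. Genes at an unadjusted p below 0.05 are marked, 82 above and 262 below 0, and none of the 15885 passed the threshold after adjustment.

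The size of effect that these libraries leave possible depends on the level of the gene. The median gene moved by −0.008, and 1097 genes (6.91%) had a fitted change above 0.5 in absolute log2 value. The 95% interval reached a median of 0.290 log2 units to either side for genes above 100 CPM, 0.342 for genes from 10 to 100 CPM, 0.577 for genes from 1 to 10 CPM and 1.13 for genes below 1 CPM. Of 14359 genes with a mean of at least 1 CPM, 13096 (91.2%) had an interval that lay wholly between −1 and 1, so a change of more than 2-fold lay outside the interval of these genes one at a time.

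**Figure D3:**
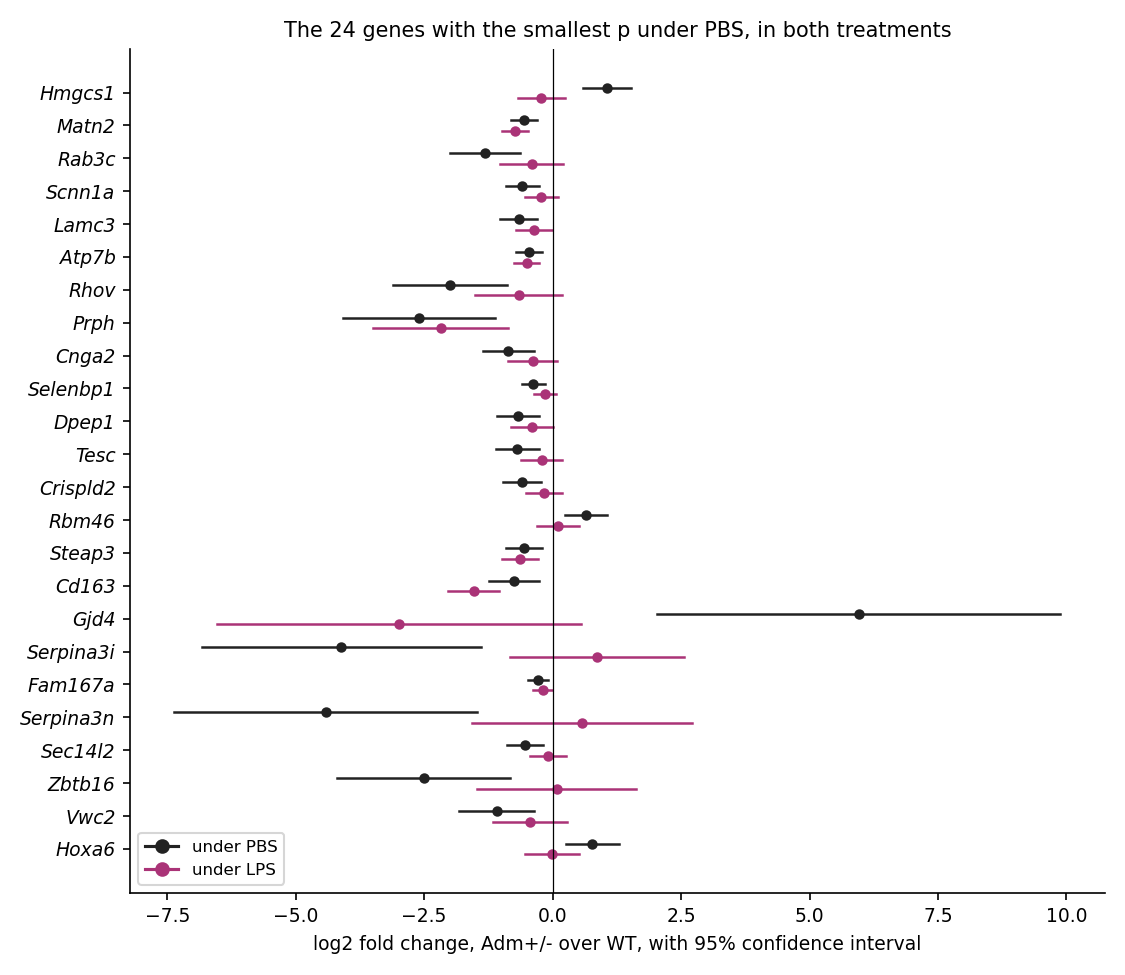
Log2 fold change of Adm+/- over WT under PBS with its 95% interval for the 24 genes with the smallest p and a mean of at least 1 CPM, with the value of the same gene under LPS beside it. Of the 24 genes 4 were higher and 20 lower under PBS, and 18 had the same sign under LPS.

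The smallest p under PBS belonged to Hmgcs1, the cytosolic HMG-CoA synthase of cholesterol synthesis. It lies on chromosome 13 from 119690379 to 119708260. Its level was 79.7, 69.9 and 51.3 CPM in the WT PBS libraries and 136, 132 and 151 CPM in the Adm+/- PBS libraries. The lowest Adm+/- mouse was above the highest WT mouse. The log2 fold change was 1.06 (95% interval 0.58 to 1.53), and it ranged from 0.82 to 1.2 over the alternatives, with a smallest adjusted p of 0.0599 in any of them. Under LPS the levels were 126, 127 and 79.8 CPM in WT and 79.1, 120 and 87.6 CPM in Adm+/- mice, which overlap (log2 fold change −0.22). The PBS value exceeded the LPS value by 1.27 (adjusted p = 0.233 for this difference with edgeR's quasi-likelihood test). In Gencode M21 the antisense gene Gm48342 lies inside Hmgcs1 and has no row in the counts, so reads from it could not be separated.

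The other genes of cholesterol synthesis and uptake lay near 0. Of 29 genes of this list, which was added after the value of Hmgcs1 had been seen, 1 was higher and 0 lower at an unadjusted p below 0.05, and the median log2 fold change was −0.01 against −0.008 over all genes. Srebf2, the transcription factor that controls the pathway, measured 192, 197 and 269 CPM in WT and 227, 187 and 176 CPM in Adm+/- mice (log2 fold change −0.16). Sqle, the squalene epoxidase, had a log2 fold change of 0.04. The 28 members apart from Hmgcs1 lay between −0.31 and 0.39. The promoter of Hmgcs1 is shown with the sterol element letters TCACNCCAC and the CCAAT boxes in capitals (RefSeq, GRCm38.p6, plus strand, chr13:119690101-119690350, the 250 bases before the start, with CCAAT read here on the minus strand as ATTGG). On both strands, TCACNCCAC occurs in 1.05% and CCAAT in 33.8% of 32851 promoters of this length. Of the 29 genes 21 had a promoter in this set, and 1 of them, Hmgcs1, holds TCACNCCAC in this window.
Hmgcs1: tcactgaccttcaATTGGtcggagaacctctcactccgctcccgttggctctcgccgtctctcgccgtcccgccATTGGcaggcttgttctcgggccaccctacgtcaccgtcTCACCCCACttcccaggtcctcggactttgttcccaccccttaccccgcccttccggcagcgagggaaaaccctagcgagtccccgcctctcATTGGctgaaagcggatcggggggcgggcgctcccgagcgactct

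A group of the leading genes had values of the same sign under LPS. Matn2 encodes matrilin-2, an adaptor protein of the extracellular matrix, and lies on chromosome 15 from 34306677 to 34436273. It measured 28.7, 33.8 and 39.5 CPM in the WT PBS libraries and 23.3, 23.6 and 22.3 CPM in the Adm+/- PBS libraries. The 3 Adm+/- mice were nearly level and all below the lowest WT mouse (log2 fold change −0.56, standard error 0.12). Under LPS the WT libraries had 56.0, 60.5 and 64.8 CPM and the Adm+/- libraries 36.9, 35.6 and 36.5 CPM. There Matn2 fell by 0.73 on the log2 scale (adjusted p = 0.00876 from edgeR), and over both treatments by 0.65 (adjusted p = 0.00623 from edgeR). For the leading genes, the value over both treatments reuses the PBS libraries by which they were chosen. Its p is therefore not separate support, and only the LPS values rest on other libraries. The PBS and LPS values of Matn2 differed by 0.18, and edgeR's test of that difference gave an adjusted p of 0.958.

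Atp7b, a copper-transporting ATPase, had 46.4, 56.5 and 46.5 CPM in WT PBS and 36.5, 33 and 39.5 CPM in Adm+/- PBS (log2 fold change −0.46). Under LPS it fell by 0.50 (adjusted p = 0.0451 from edgeR) and over both treatments by 0.48 (adjusted p = 0.0342 from edgeR). Cd163, the haemoglobin scavenger receptor of macrophages, had 4.12, 6.16 and 6.36 CPM in WT PBS and 3.42, 3.62 and 2.82 CPM in Adm+/- PBS. Its groups did not overlap, and the log2 fold change of −0.75 under PBS stood beside a fall by 1.53 under LPS (adjusted p = 0.00541 from edgeR) and by 1.14 over both (adjusted p = 0.0114 from edgeR). In bulk lung, fewer macrophages with Cd163 and less Cd163 message per macrophage cannot be told apart. Steap3, an iron reductase of endosomes, had 8.39, 10.3 and 10.4 CPM in WT PBS and 7.36, 6.72 and 5.73 CPM in Adm+/- PBS, and its log2 fold change was −0.55 under PBS and −0.64 under LPS, with an adjusted p of 0.0609 from edgeR over both. These 4 genes kept their sign in each alternative, and the range of the PBS value was −0.67 to −0.33 for Matn2, −0.93 to −0.36 for Cd163 and −0.59 to −0.35 for Atp7b. The alternatives reuse the PBS libraries by which the genes were chosen.

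Further leading genes had lower levels in Adm+/- mice. Scnn1a, the alpha subunit of the epithelial sodium channel that clears liquid from the newborn lung, measured 126, 177 and 120 CPM in WT PBS and 99.1, 79.0 and 103 CPM in Adm+/- PBS (log2 fold change −0.59). Selenbp1, a selenium-binding protein, measured 155, 187 and 183 CPM in WT and 134, 132 and 139 CPM in Adm+/- mice (−0.38). Lamc3, the gamma 3 chain of laminin, measured 20.1, 20.9 and 22.2 CPM in WT and 14.7, 12.3 and 12.9 CPM in Adm+/- mice (−0.66). None of these 3 genes overlapped between the genotypes. Dpep1, a dipeptidase that cleaves leukotriene D4, measured 44.3, 56.8 and 33.9 CPM in WT and 28.5, 25.4 and 30.5 CPM in Adm+/- mice (−0.68). Crispld2, a secreted protein that is abundant in the developing lung, measured 12.5, 17.5 and 16.4 CPM in WT and 10.7, 9.53 and 10.5 CPM in Adm+/- mice (−0.59). Fam167a had narrow groups, with 18.9, 18.3 and 18.5 CPM in WT and 15.2, 15 and 15.4 CPM in Adm+/- mice (−0.29). WT PBS 4 held the highest value of Scnn1a, Selenbp1, Dpep1 and Crispld2, and without it Scnn1a stood at −0.40 and Dpep1 at −0.48.

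Among leading genes of low level, Rab3c, a small GTPase of secretory vesicles, had 3.77, 4.32 and 1.79 CPM in WT PBS and 0.947, 1.62 and 1.39 CPM in Adm+/- PBS (log2 fold change −1.31). Rhov, a small GTPase gene, had 1.05, 1.55 and 2.29 CPM in WT and 0.473, 0.372 and 0.358 CPM in Adm+/- mice (−2.0). Prph, the intermediate filament peripherin of peripheral neurons, had 1.75, 1.41 and 3.52 CPM in WT and 0.263, 0.507 and 0.278 CPM in Adm+/- mice (−2.59). In each of these genes every Adm+/- mouse was below every WT mouse, although the counts behind the Adm+/- values of Prph were 5, 15 and 7 reads. Under LPS the log2 fold changes were −0.41 for Rab3c, −0.66 for Rhov and −2.18 for Prph. Cnga2, a subunit of a cyclic nucleotide-gated channel, had a log2 fold change of −0.86, the calcium-binding protein gene Tesc −0.69, the lipid-binding protein gene Sec14l2 −0.53 and Vwc2, a secreted antagonist of bone morphogenetic proteins, −1.09. Besides Hmgcs1, the genes on the higher side were Rbm46, an RNA-binding protein gene, with 3.69, 2.96 and 3.15 CPM in WT and 5.21, 5.14 and 5.05 CPM in Adm+/- mice (0.65), Hoxa6 (0.77) and Gjd4. Hoxa6 shares its locus with the antisense gene Hoxaas3, and the reads of both could not be separated if the counting ignored strand.

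Of the 24 leading genes, 4 rest on a single mouse. Gjd4, a connexin gene, had 455 reads (15.4 CPM) in Adm+/- PBS 7 and no more than 4 reads in any other PBS library. Serpina3n, an inhibitor of serine proteases that is made in the acute phase, had 1.40, 48.0 and 0.988 CPM in WT PBS and 0.210, 0.946 and 1.07 CPM in Adm+/- PBS. Its paralogue Serpina3i had 0.544, 7.04 and 0.371 CPM in WT PBS and 0.158, 0.203 and 0.0795 CPM in Adm+/- PBS, and reads can be divided between such paralogues. Zbtb16, a transcription factor that glucocorticoids induce, had 13.6, 180 and 18.8 CPM in WT and 14.9, 10.8 and 11.6 CPM in Adm+/- mice. WT PBS 4 alone was high in these 3 genes, and without it their log2 fold changes went from −4.42 to −0.64, from −4.12 to −1.63 and from −2.51 to −0.38. Their levels in the LPS libraries of both genotypes were higher than in WT PBS 4 for Serpina3n (90.0 to 408 CPM) and Zbtb16 (327 to 531 CPM).

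Of the 262 genes that were lower at an unadjusted p below 0.05, 106 (40.5%) had their highest level in WT PBS 4, 122 (46.6%) in WT PBS 5 and 34 (13%) in WT PBS 3. Of all tested genes that peak in a WT library, these 3 mice hold 20.3%, 56.2% and 23.5% in the same order. Of the 82 that were higher, 31 (37.8%) had it in Adm+/- PBS 6, 30 (36.6%) in Adm+/- PBS 7 and 21 (25.6%) in Adm+/- PBS 8, where all tested genes that peak in an Adm+/- library split into 29.5%, 33.3% and 37.1%. Of all genes tested, WT PBS 5 was the highest of the 6 for 35.4%, WT PBS 4 for 12.8% and Adm+/- PBS 7 for 12.3%. Genes of either direction were mostly of low level, with a median of 4.18 CPM for the lower and 3.07 CPM for the higher genes against 23.9 CPM over all genes tested. Their shares below 1 CPM were 25.6% and 29.3% against 9.61%. The count of 344 genes was 237 without Adm+/- PBS 7 and 827 without WT PBS 3, the extremes over the 6 mice.

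The genes of the adrenomedullin system were measured in 15 of 17 members of the list, since Adm2 and Calcr were not tested at their few reads. At an unadjusted p below 0.05, 0 members were higher and 2 lower (0 lower without Adm+/- PBS 6), and the median log2 fold change was −0.07. Calcrl, the receptor itself, had 828, 669 and 279 CPM in WT PBS and 446, 821 and 785 CPM in Adm+/- PBS (log2 fold change 0.21, 95% interval −0.50 to 0.92). The 2 libraries with fewer protein-coding counts, WT PBS 5 and Adm+/- PBS 6, were its lowest, 1 in each genotype. Ramp2, its partner in the adrenomedullin receptor, had 123, 136 and 148 CPM in WT and 152, 127 and 128 CPM in Adm+/- mice (−0.01, 95% interval −0.30 to 0.29). Ramp3 had −0.22 and Ramp1, which forms the receptor of calcitonin gene-related peptide, −0.07. The scavenging receptor gene Ackr3 had 0.03. The interval of Ramp2 leaves no change above 0.30 in size, while that of Calcrl is too wide to say so.

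Among the enzymes that make or break down the peptide, Pam, which amidates it, had 362, 375 and 406 CPM in WT PBS and 375, 366 and 371 CPM in Adm+/- PBS (log2 fold change −0.04). The convertase gene Furin had −0.13 and Mme, the gene of the peptidase neprilysin, 0.18. All 3 overlapped between the genotypes. Cpe, a carboxypeptidase of secretory granules, had 32.8, 27.5 and 44.2 CPM in WT and 19.9, 29.0 and 28.5 CPM in Adm+/- mice (−0.43), with −0.49 under LPS. Pcsk1, a convertase of neuroendocrine cells, had 1.28, 0.825 and 1.48 CPM in WT and 0.473, 0.878 and 0.517 CPM in Adm+/- mice (−0.90). In both Cpe and Pcsk1 the highest Adm+/- mouse lay just above the lowest WT mouse. The related peptide genes Calca and Calcb stayed below 1 CPM, with −0.12 and 0.01, and Crcp, a protein of receptor signalling, had −0.07.

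Downstream of the receptor, 16 genes that respond to cyclic AMP had a median log2 fold change of 0.01 and 0 members at an unadjusted p below 0.05. Crem, a cyclic AMP-responsive transcription factor, had 16.9, 15.3 and 12.7 CPM in WT PBS and 17.9, 19 and 16 CPM in Adm+/- PBS (0.23), and Pde4b, a phosphodiesterase that degrades cyclic AMP, had 0.13. The hypoxia list of 31 symbols, of which Aldoa has 2 gene records, had a median of −0.01, with 0 higher and 1 lower (Hif3a, which is also a glucocorticoid target).

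**Figure D4:**
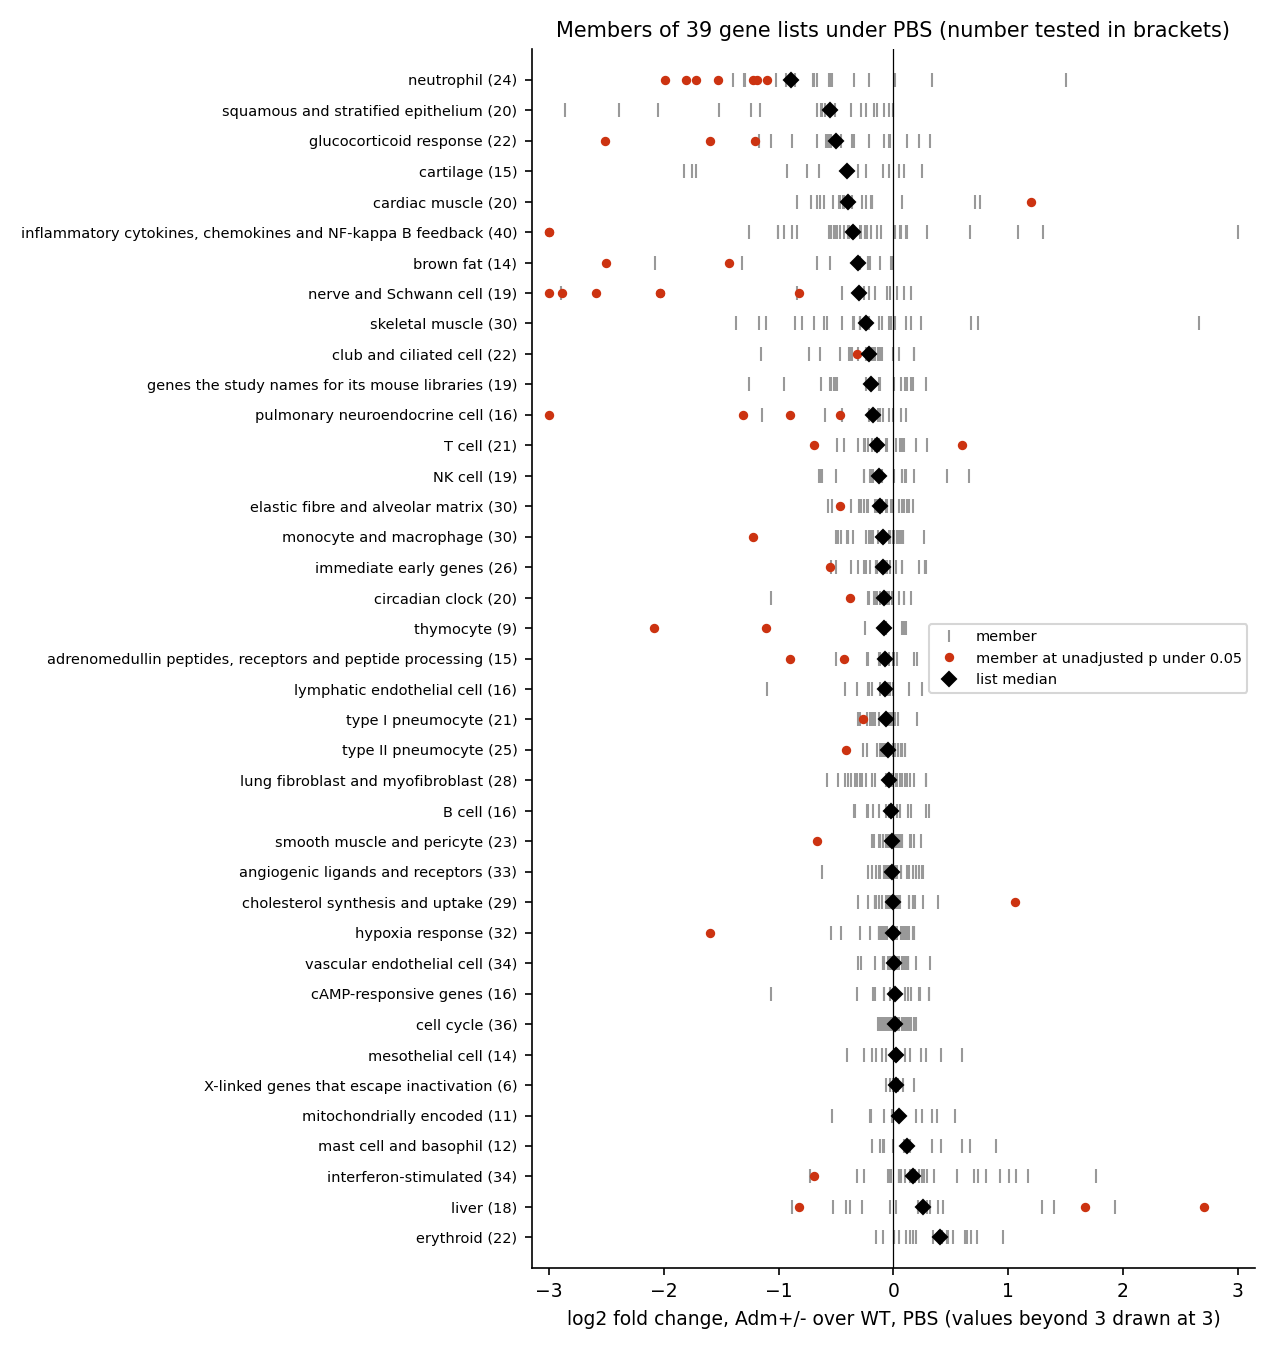
Log2 fold change of Adm+/- over WT under PBS for each tested member of 39 gene lists (ticks, with a dot for a member at an unadjusted p below 0.05) and the median of each list (diamond), with the number tested in brackets and values beyond 3 drawn at 3. The vessel, type I, type II and fibroblast lists have medians between −0.07 and 0.01, and the medians run from −0.89 for the neutrophil list to 0.41 for the erythroid list.

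Over the gene lists as a whole, 797 distinct genes of 40 lists were tested, 0 passed the threshold, and 5 were higher and 37 lower at an unadjusted p below 0.05, where all genes have 0.516% higher and 1.65% lower. When each PBS library was left out in turn, the medians of 22 of the 40 lists took both signs, and in 35 lists the count at an unadjusted p below 0.05 changed in at least 1 of the 6 fits. The vessels on which adrenomedullin acts had medians close to 0. The 34 vascular endothelial genes had a median log2 fold change of 0.01 with 0 members at an unadjusted p below 0.05, the 16 lymphatic endothelial genes −0.07 with 0, and the 33 angiogenic ligands and receptors −0.01 with 0. The lymphatic median was −0.15 with 2 lower without WT PBS 4, and without WT PBS 3 the list had 1 higher and 1 lower. Cdh5, the cadherin of endothelial junctions, measured 715, 723 and 567 CPM in WT PBS and 641, 691 and 745 CPM in Adm+/- PBS (0.05, 95% interval −0.20 to 0.30). Vegfa, the main growth factor of lung capillaries, had −0.12, and its receptor Kdr had 0.00 (95% interval −0.34 to 0.34). Prox1, the transcription factor of lymphatic identity, measured 16.2, 11.6 and 12.5 CPM in WT and 10.4, 14.8 and 13.5 CPM in Adm+/- mice (−0.06). Lyve1, a lymphatic hyaluronan receptor that lies 223 kb from Adm, had −0.03. All 5 of these vessel genes overlapped between the genotypes. The 23 genes of smooth muscle and pericytes had a median of −0.01, with Lamc3 alone lower, and the actin gene Acta2 had 0.05.

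In the epithelium, the 25 type II pneumocyte genes had a median of −0.04 with 0 higher and 1 lower, the 21 type I genes −0.07 with 0 higher and 1 lower, and the 22 club and ciliated cell genes −0.21 with 0 higher and 1 lower (−0.37 without Adm+/- PBS 7 and −0.34 without WT PBS 4). The type II member was Ctsh, a cathepsin that processes surfactant protein B, with 235, 272 and 192 CPM in WT PBS and 166, 165 and 192 CPM in Adm+/- PBS (−0.42). The type I member was Lmo7 (−0.26) and the airway member Aldh1a1 (−0.32). Sftpc had 0.04 and Sftpb −0.05, and Ager had 1023, 1167 and 1693 CPM in WT against 1420, 999 and 1003 CPM in Adm+/- mice (−0.18). The ciliated cell factor Foxj1 was 85.3 CPM in WT PBS 5 and between 27.0 and 31.3 in the other 5 mice.

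The 28 genes of lung fibroblasts and myofibroblasts had a median of −0.04 with 0 members at that level, and the 30 genes of elastic fibres and alveolar matrix −0.11 with 0 higher and 1 lower (Loxl4, a lysyl oxidase, −0.46). WT PBS 5 was the highest library for 21 of those 30 (against 35.4% of all genes), and without it the median was 0.06. Eln, the elastin gene, measured 4935, 5497 and 12551 CPM in WT PBS and 6554, 4739 and 4564 CPM in Adm+/- PBS (−0.54). It was highest in the same mouse, and the remaining 5 mice overlapped. The 14 mesothelial genes had a median of 0.02 and the 36 cell cycle genes 0.02, both with 0 members at an unadjusted p below 0.05.

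**Figure D5:**
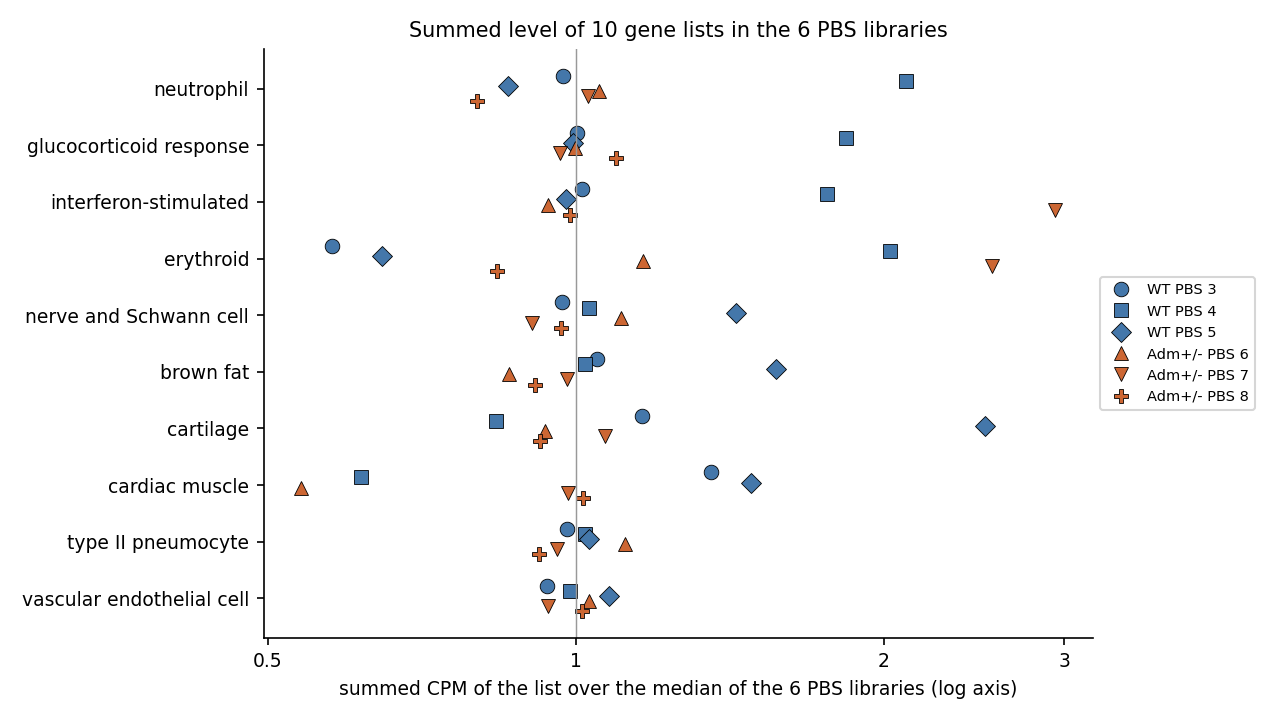
Summed CPM of 10 gene lists in each PBS library, divided by the median of the 6 PBS libraries, on a log axis, with 1 symbol per mouse and 1 colour per genotype. The neutrophil, glucocorticoid and erythroid sums are high in WT PBS 4, the nerve, brown fat and cartilage sums in WT PBS 5, and the interferon and erythroid sums in Adm+/- PBS 7.

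In the lists of inflammation and stress, 1 WT mouse stood above the other 5. The 24 neutrophil genes had a median log2 fold change of −0.89, with 0 higher and 7 lower at an unadjusted p below 0.05 (Cd177, Chil3, Cxcr2, Ltf, Mmp8, Prtn3 and Retnlg). Their summed level was 179, 387 and 158 CPM in WT PBS and 193, 189 and 147 CPM in Adm+/- PBS. WT PBS 4 was highest for 20 of the 24 (against 12.8% of all genes), and without it the median was −0.03, with 1 higher and 3 lower, while 15 were lower without WT PBS 5. Mmp8, a collagenase of neutrophil granules, measured 2.02, 10.3 and 1.17 CPM in WT and 1.63, 1.49 and 0.795 CPM in Adm+/- mice. Prtn3, a protease of the same granules, measured 0.466, 1.75 and 1.17 CPM in WT and 0.368, 0.169 and 0.318 CPM in Adm+/- mice, and there the groups did not overlap (−1.99). With limma-voom the neutrophil list had a median of −0.61 with 0 higher and 2 lower. The 22 glucocorticoid response genes had a median of −0.50 with 0 higher and 3 lower (Hif3a, Pdk4 and Zbtb16), and with limma-voom a median of −0.35 with 0 higher and 0 lower. They summed to 1139, 2086 and 1128 CPM in WT and 1133, 1096 and 1242 CPM in Adm+/- mice, and without WT PBS 4 their median was −0.03 with 0 members lower, while 10 were lower without WT PBS 3 and 9 without WT PBS 5.

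The 40 genes of inflammatory cytokines, chemokines and NF-kappa B feedback had a median of −0.35 with 0 higher and 2 lower, Cxcl2 (from at most 19 reads in a library) and Saa3. Saa3, an acute phase protein, measured 1.24, 38.1 and 1.61 CPM in WT PBS and 1.58, 1.05 and 0.835 CPM in Adm+/- PBS. Without WT PBS 4 the median of this list was 0.04 with 0 lower, while 8 were lower without WT PBS 3 and 6 without WT PBS 5. The 26 immediate early genes had a median of −0.09 with 0 higher and 1 lower (Fos, −0.55), which became −0.23 with 4 lower without WT PBS 3 and 0.03 with 1 higher and 0 lower without WT PBS 5, and the 20 circadian clock genes −0.08 with 0 higher and 1 lower (Usp2, −0.37). Per1, which is both a clock gene and a glucocorticoid target, measured 50.8, 240 and 52.3 CPM in WT and 48.6, 41.1 and 74.2 CPM in Adm+/- mice (−1.06). WT PBS 4 was highest for 29 of the 40 inflammatory genes and for 14 of the 22 glucocorticoid genes, against 12.8% of all genes.

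The 34 interferon-stimulated genes had a median of 0.17 with 0 higher and 1 lower (Ifi27l2a, −0.69). Their sum was 504, 875 and 487 CPM in WT PBS and 468, 1462 and 490 CPM in Adm+/- PBS. Adm+/- PBS 7 was highest for 28 of the 34 (against 12.3% of all genes), and without it the median was −0.49. It was 0.02 without WT PBS 3, 0.04 without WT PBS 5 and 0.51 without WT PBS 4. Gbp2, a guanylate-binding protein induced by interferon, measured 12.7, 34.9 and 12.4 CPM in WT and 15.1, 106 and 14.0 CPM in Adm+/- mice. The 22 erythroid genes had a median of 0.41 with 0 at an unadjusted p below 0.05 and summed to 947, 3318 and 1060 CPM in WT and 1904, 4174 and 1372 CPM in Adm+/- mice. As for the interferon genes, WT PBS 4 and Adm+/- PBS 7 were the highest, and without Adm+/- PBS 7 the median was −0.03. Without WT PBS 4 it was 0.49 with 4 higher, without WT PBS 3 0.27 with 2 higher and without Adm+/- PBS 8 0.64 with 2 higher.

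Few lymphocyte genes reached an unadjusted p below 0.05. The 19 NK cell genes had a median of −0.13 with 0 members at an unadjusted p below 0.05 and the 16 B cell genes −0.02 with 0. The NK cell median was −0.03 without WT PBS 4 and 0.00 for the 15 members tested with the 6 PBS libraries only. The 21 T cell genes had −0.15 with 1 higher (Cd28, 0.60) and 1 lower (Lat, −0.70). Cd28, a costimulatory receptor, measured 1.09, 0.728 and 0.741 CPM in WT PBS and 1.16, 1.28 and 1.47 CPM in Adm+/- PBS, and was 0.73 under LPS. The 9 thymocyte genes had a median of −0.08 with 0 higher and 2 lower, Arpp21 and Rag1, a recombinase of lymphocyte receptors, which had 2.17 and 1.31 CPM in WT PBS 3 and WT PBS 4 and no more than 0.398 CPM in the other 4 mice. Without WT PBS 3 the thymocyte list had 0 lower and a median of 0.03, and without WT PBS 5 its median was −0.29. The medians without WT PBS 3 were 0.03 for T cells and 0.13 for B cells. The 30 monocyte and macrophage genes had −0.09 with 0 higher and 1 lower (Chil3), and the 12 genes of mast cells and basophils 0.12 with 0. The mast cell and basophil median ranged from −0.01 (1 higher, without Adm+/- PBS 8) to 0.34 (1 higher, without Adm+/- PBS 6), and 2 were higher without WT PBS 3. Cd163 was not a member of the macrophage list, so its value has no counterpart in the median of that list.

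Genes of nerve and neuroendocrine cells held several of the lower values. The 19 genes of nerve and Schwann cells had a median of −0.30 with 0 higher and 6 lower (Mag, Nefm, Prph and Tubb3 among them). Under LPS 0 of them were higher and 6 lower, where 9.07% of all genes were lower. With limma-voom the PBS median was −0.25 with 0 higher and 1 lower. Mag, a glycoprotein of myelin, measured 1.98, 1.46 and 3.40 CPM in WT PBS and 1.10, 1.45 and 1.23 CPM in Adm+/- PBS (−0.82). The summed level was 684, 727 and 1012 CPM in WT and 781, 640 and 682 CPM in Adm+/- mice. WT PBS 5 was highest for 12 of the 19 (against 35.4% of all genes), and without it the median was −0.15 with 0 higher and 1 lower. Without WT PBS 4 the median was −0.65 with 8 lower, without WT PBS 3 −0.54 with 4 lower, and without any 1 Adm+/- mouse 2 or 3 were lower. The 16 genes of pulmonary neuroendocrine cells, a list added after the values had been seen, had a median of −0.18 with 0 higher and 4 lower (Chga, Pcsk1, Rab3c and Syp), which became 2 lower without WT PBS 3, WT PBS 5, Adm+/- PBS 6 or Adm+/- PBS 8. Chga, the granule protein chromogranin A, had 6, 2 and 11 reads in WT PBS and 0 in each Adm+/- PBS library. Syp, a protein of secretory vesicles, measured 2.87, 3.01 and 2.90 CPM in WT and 2.0, 2.09 and 2.27 CPM in Adm+/- mice (−0.46), with −0.41 under LPS. These are low levels in whole lung, and rare cells or small pieces of nerve in a lung sample and the level per cell cannot be told apart.

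Tissues that lie beside the lung were checked as well. The 14 brown fat genes had a median of −0.31 with 0 higher and 2 lower (Fabp4 and Plin1), which became −0.11 with 0 lower without WT PBS 5, 4 lower without WT PBS 3 and 0 lower without Adm+/- PBS 6. Plin1, the perilipin of fat droplets, measured 1.86, 0.485 and 17.1 CPM in WT PBS and 0.473, 1.69 and 1.11 CPM in Adm+/- PBS. The 15 cartilage genes had −0.40 with 0 members at an unadjusted p below 0.05 (−0.03 without WT PBS 5) and summed to 136, 98.1 and 295 CPM in WT and 110, 125 and 108 CPM in Adm+/- mice. WT PBS 5 was highest for 10 of the 14 brown fat genes and 11 of the 15 cartilage genes, against 35.4% of all genes, and the share of neighbouring tissue in its sample was not tested. The 30 skeletal muscle genes had a median of −0.24, the 20 cardiac genes −0.39 and the 20 squamous genes −0.55, with 1 member higher in the cardiac list (Nppa, the natriuretic peptide, at most 0.439 CPM) and 0 others. Of the squamous genes 8 had no more than 3 reads in any PBS library of at least 1 genotype, and without them the median was −0.33. These medians rest on single mice. Without WT PBS 4 they were −0.48, −0.69 (7 cardiac genes lower) and −0.80, and without WT PBS 5 they were 0.01, −0.15 and −0.25. The 18 liver genes had 0.25 with 2 higher (Afp and Fga, at most 3.65 CPM) and 1 lower (Hpx), and its median was −0.51 without Adm+/- PBS 7, 0.02 without WT PBS 5 and 0.85 without WT PBS 3. Of 4 Y-linked genes and 6 genes that escape X inactivation 0 were at an unadjusted p below 0.05 (medians 1.01 and 0.02). In each genotype 1 PBS library, WT PBS 5 and Adm+/- PBS 8, had Y-linked levels far above those of the other PBS libraries, which summed to at most 0.101 CPM. Under LPS, WT LPS 11 summed to 270 CPM and the 3 Adm+/- LPS libraries to at most 0.0374 CPM. The genotype contrasts that use LPS libraries thus set groups against each other that are unlike in this respect. The 11 mitochondrially encoded genes had a median of 0.05 with 0, and of −0.15 without WT PBS 4 and 0.74 without WT PBS 3.

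The 19 genes that the study names for its mouse libraries had a median of −0.20, and 0 of them were at an unadjusted p below 0.05 under PBS. Without WT PBS 4 the median was −0.01, without WT PBS 3 it was −0.33 with 2 lower, and without WT PBS 5 it was −0.14 with 3 lower. Slit2, a guidance ligand that is high in lung mesenchyme, measured 770, 677 and 683 CPM in WT PBS and 782, 779 and 836 CPM in Adm+/- PBS. The genotypes did not overlap, and the log2 fold change was 0.17 (95% interval −0.10 to 0.44). Lgi3 had 0.01 (95% interval −0.29 to 0.30) and the adhesion molecule Icam1 −0.20 (95% interval −0.83 to 0.44). Stat3, a transcription factor activated by cytokines, measured 140, 322 and 171 CPM in WT and 149, 157 and 143 CPM in Adm+/- mice (−0.49), again with WT PBS 4 as the highest. The interleukin gene Il1b measured 2.72, 10.4 and 3.27 CPM in WT and 3.05, 2.94 and 2.47 CPM in Adm+/- mice (−0.96).

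Genes next to Adm were examined because a congenic allele carries flanking sequence of the strain in which it was made. Within 5 Mb of Adm on chromosome 7, 63 genes were tested, of which 0 were higher and 1 was lower at an unadjusted p below 0.05 (1.59%), against 1.79% on the rest of chromosome 7 and 2.17% over all other genes. The median log2 fold change there was 0.01. The genotypes did not overlap for 6.35% of these genes, against 4.68% on the rest of chromosome 7 and 4.98% over all other genes. The nearest tested neighbours were Ampd3, an AMP deaminase gene, with 14.4, 15.9 and 12.4 CPM in WT PBS and 13.4, 14.3 and 13.1 CPM in Adm+/- PBS (−0.07), and Rnf141 (0.16). The lower gene was Lmo1, a transcriptional cofactor 1489 kb away, with 1.28, 1.36 and 1.17 CPM in WT and 0.947, 0.642 and 0.755 CPM in Adm+/- mice (−0.72), against −0.02 under LPS. Over both treatments 0 genes of this window passed the threshold, while 9 of 1175 did on the rest of chromosome 7 and 46 of all 15821 genes outside the window. At so small a share, a count of 0 among 63 genes says little.

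The PBS and LPS comparisons of genotype share no library, but they come from 1 fit with a common variance estimate for each gene, so their p-values are not separate. Of the 262 genes lower under PBS at an unadjusted p below 0.05, 58 (22.1%) were also lower under LPS at that level, where 9.07% of all genes were. These 58 are 4.02% of the 1441 genes lower under LPS. The share moved with the PBS libraries in the fit, and was 11% without WT PBS 3 (9.4% of all genes in that fit), 12.4% without WT PBS 5 (11% of all genes) and 32.9% without WT PBS 4 (9.21% of all genes). Without WT PBS 3 or WT PBS 5 it was thus near that of all genes. Of the 82 genes higher under PBS, 5 (6.10%) were also higher under LPS, against 5.25% of all genes, and they are 0.6% of the 834. That share was 1.06% without WT PBS 3 (5.37% of all genes) and 2.73% without Adm+/- PBS 6 (5.11% of all genes). In opposite directions at that level were 13 genes lower under PBS and higher under LPS and 3 genes higher under PBS and lower under LPS. Of the 262 lower genes 152 (58.0%) were below 0 under LPS, as were 50.8% of all genes. Among the 24 leading genes 8 were at an unadjusted p below 0.05 in the same direction under LPS and 0 in the opposite direction. Arhgap18, a GTPase-activating protein, was 1 of the 5 shared on the higher side, with 65.9, 66.3 and 65.7 CPM in WT PBS and 75.4, 74.2 and 76.4 CPM in Adm+/- PBS (0.19 under PBS and 0.23 under LPS).

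Averaged over both treatments, 46 genes passed the threshold, all of them lower in Adm+/- mice (0.29% of the genes tested, and 0% for higher), while 1550 genes had an unadjusted p below 0.05. Some settings also called higher genes, 17 of 275 with DESeq2, 9 of 133 with sample quality weights, 3 of 69 with the protein-coding share as a covariate, 2 of 71 without WT PBS 4, 5 of 133 without WT LPS 10 and 2 of 49 without WT LPS 9. The count was 21 without WT PBS 3 and 22 without Adm+/- LPS 2. The 10 with the smallest p were Mylpf, Ryr1, Hmcn2, Myom3, Neb, Atp2a1, Myh8, Arpp21, Actn3 and Zcchc5. Under PBS their log2 fold changes lay between −1.11 (Arpp21) and 0.24 (Atp2a1), and under LPS between −6.92 and −3.28. Atp2a1, the calcium pump of fast muscle, measured 1.63, 2.09 and 2.97 CPM in WT PBS and 2.89, 2.37 and 2.54 CPM in Adm+/- PBS, while the WT LPS libraries had 134, 139 and 54.0 CPM. For all 10 genes, the 3 WT LPS libraries held the highest levels of the 12. The skeletal muscle list summed to 4964, 6489 and 3012 CPM in WT LPS and to between 641 and 732 CPM in Adm+/- LPS (median under LPS −4.89). The squamous list summed to 4417, 260 and 2310 CPM in WT LPS and to between 228 and 274 CPM in Adm+/- LPS (−5.27). How many of the 46 genes follow such tissue in the WT LPS samples was not tested. The PBS libraries contributed in the same direction for Hmcn2, a hemicentin of the extracellular matrix, with 13.8, 7.04 and 20.6 CPM in WT and 6.58, 9.09 and 7.28 CPM in Adm+/- mice (−0.84), though there the genotypes overlapped. A test of the difference between the PBS and LPS effects of genotype had 23 genes past the threshold, all with the higher value under PBS (0.145% of the genes tested). With DESeq2 there were 168, of which 122 had the higher value under PBS, with sample quality weights 405, of which 226 did, and with limma-voom 1. Without WT LPS 10 there were 65 (63 with the higher value under PBS), and without Adm+/- PBS 7 there were 5.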

How the data were processed

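Bulk RNA sequencing counts from 12 whole mouse lungs were analysed, 1 library per mouse and 3 mice per group, with the 6 PBS libraries as the comparison of interest. The counts were used as the authors deposited them, as whole-number reads per gene without normalization. Per the submitters' processing notes, reads were trimmed with Trim Galore, aligned to mm10 with HISAT2 and counted with featureCounts. The libraries are directional, but the strand option and the Gencode release of the counting are not given in the sources used here, so overlapping genes on opposite strands may share reads. Files that hold only the authors' own comparisons were not used, and the human libraries of the study were not analysed here.

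After edgeR's filterByExpr, applied with the 4 groups, 15885 of 21950 protein-coding genes were kept, scaled by TMM and fitted in R 4.3.3 with edgeR 4.0.16 (glmQLFit and glmQLFTest), with 1 coefficient per group, all 12 libraries and 8 residual degrees of freedom. Contrasts were Adm+/- against WT under PBS, under LPS and averaged over both, and the PBS minus the LPS effect. P-values were two-sided and were adjusted by Benjamini-Hochberg over all tested genes. They rest on the spread between the 3 mice of a group, estimated for each gene over all 12 libraries. The median SD on the log2 CPM scale was 0.288 in WT PBS and 0.187 in Adm+/- PBS, against 0.167 in WT LPS and 0.117 in Adm+/- LPS. The p-values under PBS thus lean in part on groups with less spread. Standard errors and 95% intervals come from the same fit. Alternatives used DESeq2 1.42.0, limma 3.58.1 (voom, with and without sample quality weights), edgeR's glmTreat, other filters, normalizations and covariates, and fits without single libraries. A fit without WT PBS 4, WT PBS 5 and Adm+/- PBS 6, and fits without single LPS libraries, were added after seeing the data. The scripts were tested on simulated counts. Reads carry no molecular identifiers, so counting precision covers counting error only. Positions are from Gencode M21 (99.7% of genes found) and promoters from RefSeq.

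Genes named were drawn from Adm and its list, the 24 with the smallest p under PBS and a mean of at least 1 CPM (none passed the threshold), the 10 with the smallest p over both treatments, near Adm those with an unadjusted p below 0.05 and the 3 nearest, the genes the study names, and, from each of 40 lists, the 3 most abundant members and those with an unadjusted p below 0.05. Not every gene this rule takes is printed. The members and lists were chosen with earlier results of these data known, and the cholesterol and neuroendocrine lists were added after the values had been seen. Arhgap18 and the further list members given with values (such as Crem, Foxj1, Gbp2 and Per1) were also chosen after their values were seen. Some members of the lists are counted but their own values are not reported here.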

Additional observations from a re-analysis of the deposited data

Results flagged for a closer look

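In the edgeR fit reported, a test of the difference between the genotype effect under PBS and that under LPS passed the threshold for 23 genes, with edgeR's quasi-likelihood test and Benjamini-Hochberg adjustment, and 1247 genes had an unadjusted p below 0.05. All 23 had the higher value under PBS, as did 122 of the 168 genes called with DESeq2 and 226 of the 405 with sample quality weights. The 8 genes given below had their highest levels in the 3 WT LPS libraries. The skeletal muscle list summed to between 3012 and 6489 CPM in those libraries and to at most 1039 CPM in any other. Whether the difference follows the share of such tissue in the samples was not tested. The PBS effect minus the LPS effect on the log2 scale was 6.62 for the myosin gene Myh8, 5.53 for the myosin light chain gene Mylpf, 5.44 for the calcium pump gene Atp2a1, 5.27 for the calcium release channel gene Ryr1, 4.98 for the actinin gene Actn3, 4.09 for the myomesin gene Myom3, 3.68 for the nebulin gene Neb and 3.12 for Zcchc5. Under PBS alone these 8 genes had log2 fold changes between −0.60 (Mylpf) and 0.24 (Atp2a1), and none of them had an unadjusted p below 0.05.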

How the results depend on the processing

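The count of genes past the threshold under PBS was 0 in the fit reported and in each of the 20 alternatives, as was that of genes near Adm, and the sign of Adm was kept in each. The log2 fold change of Adm ranged from −0.89 (limma-voom with sample quality weights, adjusted p = 0.407, unadjusted p = 0.00909) to −0.21 (without WT PBS 4). In the other alternatives the unadjusted p of Adm lay between 0.07475 and 0.527 by the test of each. The count at an unadjusted p below 0.05 under PBS, 344 in the fit reported, was 1291 with sample quality weights, 101 with glmTreat, 611 over all annotated genes, 160 with the 6 PBS libraries only, 610 with the protein-coding share as a covariate and 226 without WT PBS 4, WT PBS 5 and Adm+/- PBS 6. Leaving out 1 PBS library moved it from 237 (without Adm+/- PBS 7) to 827 (without WT PBS 3). The count over both treatments, 46, was 275 with DESeq2, 26 with limma-voom, 133 with sample quality weights, 16 with glmTreat, 17 without WT PBS 5 and Adm+/- PBS 6, 21 without these and WT PBS 4, and 21 (without WT PBS 3) to 133 (without WT LPS 10) when 1 of the 12 libraries was left out. The count of genes whose PBS and LPS effects differ, 23, was 168 with DESeq2, 1 with limma-voom, 405 with sample quality weights, 13 with glmTreat, 37 with the protein-coding share as a covariate, 0 without the 3 libraries, and 5 (without Adm+/- PBS 7) to 65 (without WT LPS 10) when 1 of the 12 was left out. With the Y-linked mean as a covariate, the count over both treatments was 34 and that of differing effects 16. The cause of these shifts was not tested. The 24 leading genes kept their sign in each alternative in which they were tested (19 for Gjd4 and Serpina3i). They had been chosen for a small p in the same libraries, so a change of sign was unlikely. Of 799 list medians 48, in 21 lists, moved by more than the spread between replicates. No paired analysis was possible because the replicate numbers are library numbers that no groups share.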

Other observations

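Genes outside the protein-coding class were tested in a separate fit. None of the 7164 tested met the threshold under PBS (a count of 0), and Adm+/- mice had 100 of them higher and 117 lower at an unadjusted p below 0.05 (smallest adjusted p of 1 from edgeR's quasi-likelihood test). Gm28119, annotated as sense intronic, had 28, 13 and 16 reads in the WT PBS libraries and 36, 55 and 40 reads in the Adm+/- PBS libraries. The small nuclear RNA gene Gm23849 had 896 reads in Adm+/- PBS 7 and 3 to 35 reads in the other 5 libraries. Adm+/- PBS 7 is also the mouse with the high Gjd4 and interferon-stimulated levels.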
